A study of Mus musculus with 6 samples.

Results

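The genes described are 34 genes of the unfolded protein response and the integrated stress response, taken by their symbols from a deposited table of 43346 genes. They comprised 5 stress sensors and transcription factors, 14 chaperones and folding enzymes, 6 genes of endoplasmic reticulum (ER) associated degradation and 9 targets of ATF4. Expression was measured by RNA sequencing of liver tumours that had been induced with diethylnitrosamine (DEN), a liver carcinogen. There were 3 tumours from mice with Gli1 KO and 3 from mice with WT Gli1, and the mice of both groups overexpressed SULF2, an extracellular sulfatase. The labels name the mice Sulf2-TTR without spelling out what drives the transgene, and they give no age, no description of the Gli1 deletion and nothing on whether any tumours shared an animal. The p-values therefore measure the spread between these samples. All 34 genes were tested.

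The unfolded protein response answers misfolded protein in the ER lumen through the membrane sensors ATF6, IRE1 (encoded by Ern1) and PERK (encoded by Eif2ak3). Cleaved ATF6 and the XBP1 form spliced by IRE1 switch on ER chaperones and the degradation machinery, while PERK phosphorylates eIF2 alpha, which lowers general translation and favours translation of ATF4. ATF4 in turn drives amino acid synthesis and import genes, Trib3 and Ddit3 (CHOP), and it also receives signals from other eIF2 alpha kinases, hence the name integrated stress response. Hepatocytes, which secrete most plasma proteins, carry a large ER and express the chaperones at a high basal level.

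The bases around the gene starts are shown first, because ATF6 and ATF4 are known to act through different response elements. RefSeq promoter windows (GRCm38.p6, 250 bases before to 50 after the start) were held for 30 of the 34 genes. The ER stress response element (ERSE), searched on both strands as CCAAT and CCACG with 9 bases between them, was present in 9 of 17 chaperone and degradation genes with a window, in 0 of 9 ATF4 targets and in 0 of 4 sensors and factors, against 0.137% of 27025 genes. The sites are shown because they mark which chaperone genes match these letters of the element that ATF6 is known to bind with NF-Y. Copies of the element that differ from these letters were not searched. They lay from base -212 to base -26 relative to the start and read as follows on the strand of the match, with the searched parts in capitals.
Calr: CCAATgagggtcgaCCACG
Canx: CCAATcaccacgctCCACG
Creld2: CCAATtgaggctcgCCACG
Derl3: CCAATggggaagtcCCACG
Dnajc3: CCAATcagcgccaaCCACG
Hsp90b1 distal: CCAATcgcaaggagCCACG
Hsp90b1 proximal: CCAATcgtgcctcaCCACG
Hspa5: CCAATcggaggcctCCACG
Pdia6: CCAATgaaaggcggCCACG
Syvn1: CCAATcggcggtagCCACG
ERSE-II, searched as ATTGG and CCACG with 1 base between them, was found in Dnajb11 and Herpud1, 2 of 17 chaperone and degradation genes, against 0.0444% of all genes. The UPR element searched as TGACGTGG was in 0 windows of the 30 genes, against 0.714% of all genes. The CARE motif of ATF4 and C/EBP factors, searched as TGATGNAA, was in the ATF4 targets Trib3, Asns and Chac1, 3 of 9, and in Herpud1, 1 of 17, against 4.51% of all genes. None of the matches overlapped a match to another of these motifs. A match describes these letters only, and none was tested for binding.

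The 250 bases before the start are given for the genes on which the results below turn, on the gene's strand, with motif matches in capitals. Hspa5 (plus strand, chr2:34771840-34772089) and Creld2 (plus strand, chr15:88819396-88819645) each hold 1 exact ERSE match, the one in Creld2 on the opposite strand.
Hspa5: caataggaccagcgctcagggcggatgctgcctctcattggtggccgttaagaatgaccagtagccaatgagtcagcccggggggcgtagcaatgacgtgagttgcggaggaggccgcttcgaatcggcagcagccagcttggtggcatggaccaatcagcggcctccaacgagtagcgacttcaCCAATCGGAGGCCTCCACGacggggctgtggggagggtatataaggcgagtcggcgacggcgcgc
Creld2: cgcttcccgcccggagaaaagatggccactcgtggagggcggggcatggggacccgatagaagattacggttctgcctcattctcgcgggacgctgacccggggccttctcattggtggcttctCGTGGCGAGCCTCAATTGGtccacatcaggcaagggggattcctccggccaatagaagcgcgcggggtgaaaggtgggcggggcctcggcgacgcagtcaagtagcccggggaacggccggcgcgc
Derl3 (plus strand, chr10:75893148-75893397) holds 1 exact ERSE match on the opposite strand, and Herpud1 (plus strand, chr8:94386179-94386428) holds a CARE on the opposite strand upstream of its ERSE-II.
Derl3: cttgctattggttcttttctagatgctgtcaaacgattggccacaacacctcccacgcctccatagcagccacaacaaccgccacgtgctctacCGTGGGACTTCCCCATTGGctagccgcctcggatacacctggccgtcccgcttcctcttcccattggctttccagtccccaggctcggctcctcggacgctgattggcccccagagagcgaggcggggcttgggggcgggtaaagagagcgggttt
Herpud1: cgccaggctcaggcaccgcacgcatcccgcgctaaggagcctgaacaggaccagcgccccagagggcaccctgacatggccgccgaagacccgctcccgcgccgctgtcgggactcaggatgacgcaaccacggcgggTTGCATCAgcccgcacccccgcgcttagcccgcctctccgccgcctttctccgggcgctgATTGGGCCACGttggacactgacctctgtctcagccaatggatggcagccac
Asns (minus strand, chr6:7693210-7693459) holds its CARE close to the start, and Chac1 (plus strand, chr2:119350992-119351241) holds one further away on the opposite strand.
Asns: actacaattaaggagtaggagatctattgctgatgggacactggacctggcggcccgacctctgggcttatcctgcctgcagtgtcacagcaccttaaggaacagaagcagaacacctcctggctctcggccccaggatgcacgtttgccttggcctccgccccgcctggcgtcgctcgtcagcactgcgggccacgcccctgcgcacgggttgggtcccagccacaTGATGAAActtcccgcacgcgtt
Chac1: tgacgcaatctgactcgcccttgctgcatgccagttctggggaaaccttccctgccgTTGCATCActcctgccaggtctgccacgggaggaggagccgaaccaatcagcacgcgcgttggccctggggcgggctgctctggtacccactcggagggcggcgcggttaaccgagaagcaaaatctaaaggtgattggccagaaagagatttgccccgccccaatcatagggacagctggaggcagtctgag
In Trib3 the CARE lay after the start, from base 15 to base 22, and is given with the bases around it (minus strand, chr2:152344028-152344057).
Trib3: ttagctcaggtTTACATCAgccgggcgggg

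Summed gene counts were 76746128 to 132979502 reads in KO libraries and 75205624 to 95777670 in WT libraries. Gli1, the targeted gene, had 4, 3 and 3 reads in KO replicates 1, 2 and 3 and 10, 20 and 7 reads in the WT replicates, so every KO library was below every WT library at a very low count. Among the stress genes, Ddit3 lies 33.6 kb and Shmt2 176 kb from Gli1 on chromosome 10. Levels below are CPM, read counts scaled by library total and TMM factor (trimmed mean of M values), unless RPKM is named. The hepatocyte markers were abundant in all tumours, with a summed 160472 to 185136 CPM for 9 genes in KO and 162071 to 224221 in WT. Endothelial markers, led by Stab2, Kdr and Fcgr2b, summed to 150 to 191 CPM in KO and 226 to 267 CPM in WT, without overlap. Singly, 4 of the 8 had every KO library below every WT library, against 3.96% of all genes, and 2 had a higher fitted level in KO. Macrophage markers summed to 136 to 221 CPM in KO and 150 to 519 CPM in WT. Cholangiocyte markers summed to 92.0 to 487 CPM in KO and 52.0 to 492 CPM in WT. Each library is one tumour with all its cell types, and fewer cells of a type and less RNA per cell cannot be told apart.

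No stress gene passed the test between genotypes. In edgeR's quasi-likelihood test with Benjamini-Hochberg adjustment over 18359 genes, 0 of the 34 had FDR under 0.05 (smallest FDR 0.9997), as for all genes tested (0%). At an unadjusted p under 0.05 there was 1 gene lower in KO, Derl3, where 2.02% of all genes were, and 0 higher, where 1.6% of all genes were. DESeq2 called 0 of the 33 stress genes for which it gave an adjusted p (all but Psat1), against 0.352% of all genes, and had 3 at an unadjusted p under 0.05. Of these Derl3 and Creld2 were lower in KO, as 2.28% of the 28057 genes with a DESeq2 p were, and Aldh18a1 was higher, as 1.61% were. All KO libraries lay below all WT libraries for 1 gene, Edem1 (3.96% of all genes), and above them for 0 (4.15% of all genes). In the deposited RPKM, which lack TMM factors, Edem1 overlapped as well.

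**Figure D1:**
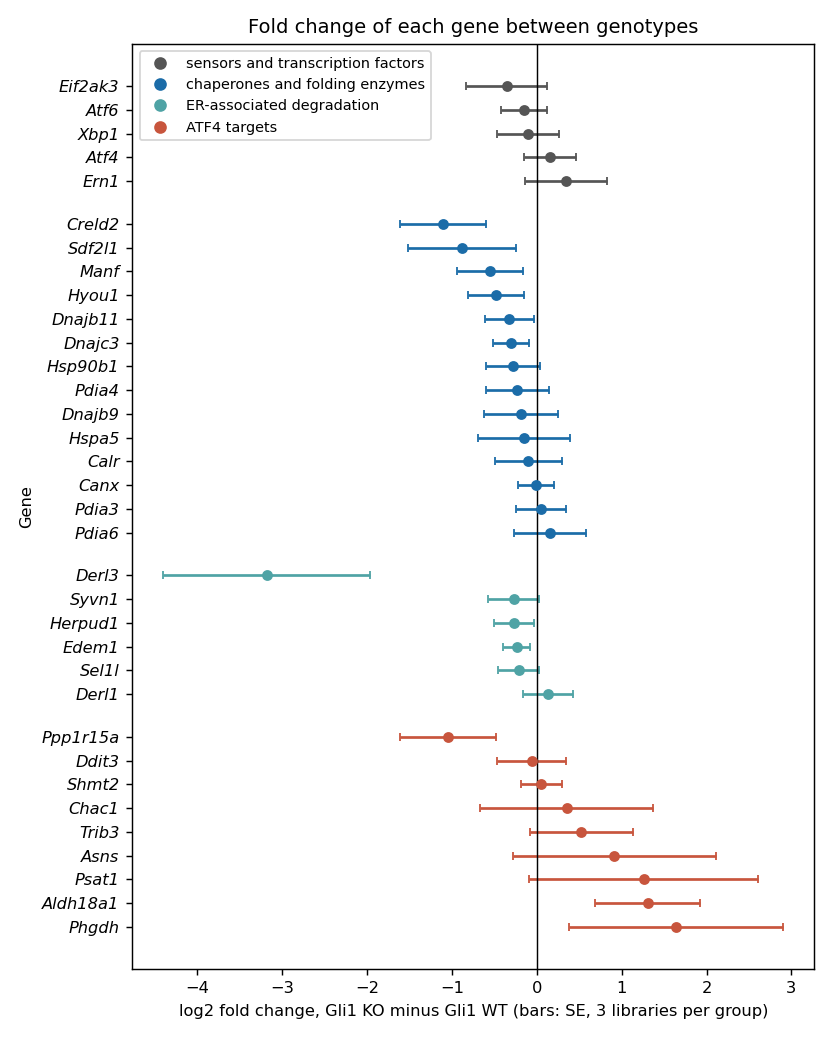
Log2 fold change (KO minus WT, x axis) of each of the 34 genes with its standard error, 3 libraries per group, in 4 groups by role. Of the chaperone and degradation genes 17 of 20 lie left of 0 and of the ATF4 targets 7 of 9 lie right of 0, and none passed the test.

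The point estimates of the 2 arms lay on opposite sides of 0. In the chaperone and degradation arm 17 of 20 genes had a negative log2 fold change (KO minus WT), with a median of -0.25, and in the ATF4 arm 7 of 9 had a positive one, with a median of 0.52. Over all genes tested 9502 of 18359 were negative, with a median of -0.01. Both splits depended on single tumours. After removal of WT replicate 1, 9 of 20 chaperone arm genes were negative and the median was 0.02. After removal of WT replicate 2, all 20 were negative and the median was -0.47. With any other library removed, 14 to 17 of the 20 were negative. After removal of KO replicate 1, 6 of 9 ATF4 targets were negative and the median was -0.33. With any other library removed, 1 to 3 of the 9 were negative. The count of negative chaperone arm genes also depended on the scale, on which all genes shifted. With limma on log2 of the deposited RPKM + 0.1, 11 of 20 were negative with a median of -0.03. The median of all genes was 0.19 there, so the chaperone median lay below that of all genes on both scales. The ATF4 arm had 2 of 9 negative there, with a median of 0.55, above that of all genes on both scales.

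**Figure D2:**
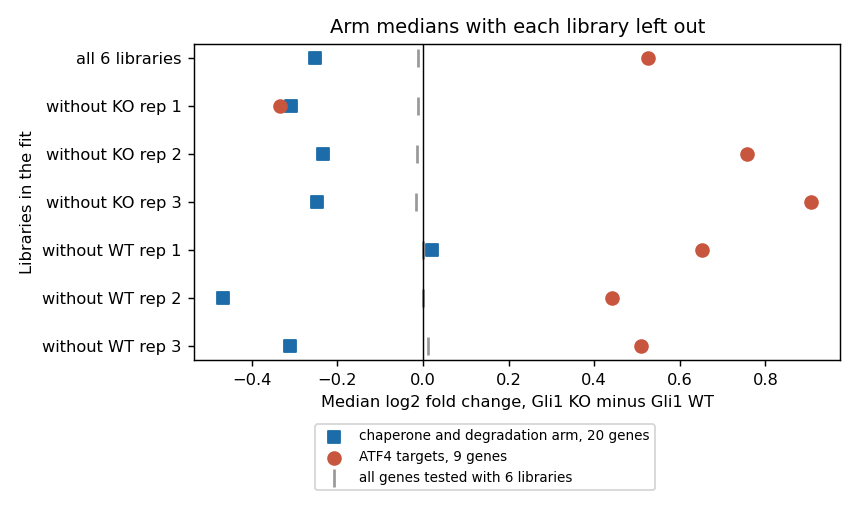
Median log2 fold change (KO minus WT, x axis) of the chaperone and degradation arm and of the ATF4 arm, with the median of all genes, for the fit with 6 libraries and with each library left out (y axis). The ATF4 median is -0.33 when KO replicate 1 is left out, against 0.52 with all libraries, and the chaperone median is 0.02 when WT replicate 1 is left out, against -0.25.

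Single tumours stood out more than genotypes. For each arm a level per library was formed as the mean over its genes of log2 normalized CPM, centred on each gene's mean over the 6 libraries. In the chaperone arm this level was 0.07, -0.35 and -0.17 in KO replicates 1, 2 and 3, against 0.76, -0.49 and 0.18 in the WT replicates. In the ATF4 arm it was 1.5, -0.28 and -0.74 in KO, against -0.06, -0.99 and 0.58 in WT. WT replicate 2 was the lowest in both arms, WT replicate 1 the highest in the chaperone arm and KO replicate 1 the highest in the ATF4 arm. The chaperone level minus the ATF4 level was -1.43, -0.07 and 0.57 in KO, against 0.83, 0.50 and -0.40 in WT. The genotypes overlapped in each of these measures, and the difference between arms averaged -0.31 ± 1.02 in KO and 0.31 ± 0.64 in WT (SD, n = 3 each).

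**Figure D3:**
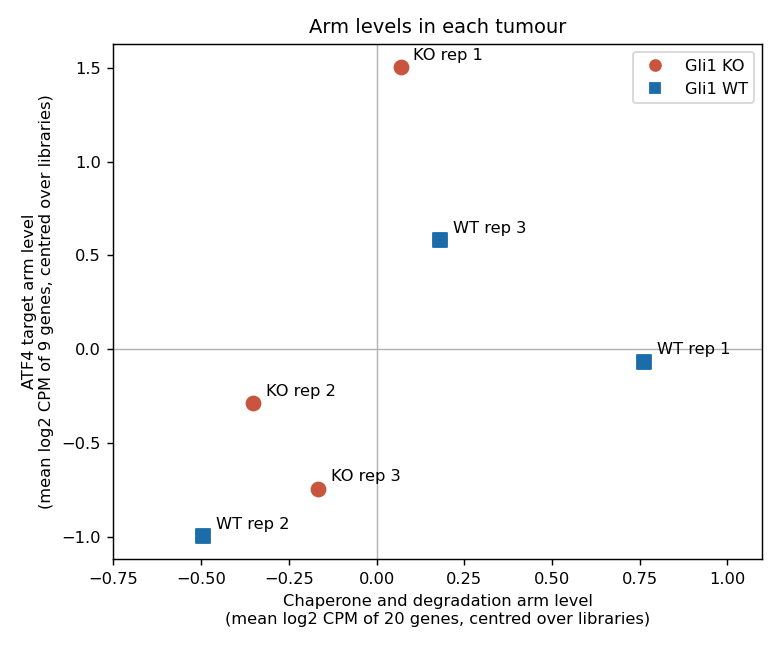
Centred mean log2 CPM of the 20 chaperone and degradation genes (x axis) and of the 9 ATF4 targets (y axis) in each tumour, KO as circles and WT as squares. KO replicate 1 is at 1.5 on the ATF4 axis and WT replicate 1 at 0.76 on the chaperone axis, with WT replicate 2 lowest on both.

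None of the sensors and transcription factors separated the genotypes. Atf6, the sensor cleaved in the Golgi, had 66.2, 81.1 and 41.9 CPM in KO replicates 1, 2 and 3, against 79.3, 56.3 and 74.5 CPM in WT. Eif2ak3, encoding PERK, had 25.4, 21.5 and 12.9 CPM in KO, against 24.6, 11.3 and 40.6 CPM in WT. For both the groups overlapped, with log2 fold changes of -0.15 ± 0.28 and -0.36 ± 0.47 (SE, n = 3 per group), and both were lowest or next to lowest in KO replicate 3. Ern1, encoding the nuclease and kinase IRE1, had 116, 94.9 and 53.2 CPM in KO, against 41.9, 46.3 and 121 CPM in WT. Its log2 fold change was 0.34 ± 0.49, and it became 1.00 without WT replicate 3, its highest library by CPM.

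Xbp1, whose mRNA is the splicing target of IRE1, had 401, 215 and 191 CPM in KO, against 228, 253 and 388 CPM in WT. Atf4 had 132, 74.9 and 73.0 CPM in KO, against 80.9, 64.6 and 107 CPM in WT. For both transcripts KO replicate 1 was the highest and WT replicate 3 the second, and the genotypes overlapped. Their log2 fold changes were -0.11 ± 0.36 and 0.15 ± 0.31. Gene counts do not separate spliced from unspliced Xbp1, and ATF4 is known to be controlled mainly by translation, so neither transcript level measures the activity of its arm.

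Per length, Herpud1 and the chaperones Hspa5, Hsp90b1 and Calr were the most abundant of these genes. By the deposited RPKM, which are scaled to a coding length, Hspa5 (BiP, the HSP70 of the ER) averaged 166 over the 6 tumours, Herpud1 142, Hsp90b1 (GRP94) 135 and the lectin chaperone Calr 135. The lowest means were 1.44 RPKM for Aldh18a1, 2.80 for Chac1 and 3.11 for Derl3. Xbp1 averaged 75.5 RPKM and Atf4 45.3, while the sensors Ern1, Atf6 and Eif2ak3 averaged 8.54, 6.25 and 3.62. Order by mean did not separate Hsp90b1 (98.9 to 180 RPKM over the tumours) from Calr (94.2 to 191), nor Ern1 (3.93 to 13.9) from Atf6 (4.34 to 7.80).

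Hspa5, the chaperone that holds the sensors inactive, had 1292, 518 and 475 CPM in KO, against 1202, 415 and 923 CPM in WT. KO replicate 1, WT replicate 1 and WT replicate 3 were the high libraries, so both genotypes held high and low tumours. The log2 fold change was -0.15 ± 0.54 (edgeR FDR 0.9997). It became -0.76 when KO replicate 1 was left out and 0.19 when WT replicate 1 was. Hsp90b1 (615, 449 and 638 CPM in KO, against 945, 475 and 650 in WT) had -0.28 ± 0.32. The lectin chaperones Calr and Canx had -0.10 ± 0.39 and -0.01 ± 0.21, and Canx, at a highest to lowest ratio of 1.36, was among the steadiest of the genes.

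Among the chaperones and folding enzymes, Sdf2l1 and Creld2 had the widest ranges, with highest to lowest CPM ratios of 6.65 and 4.60. Creld2, a disulfide isomerase-like ER stress protein, had 17.4, 11.1 and 13.4 CPM in KO, against 50.9, 11.5 and 27.8 CPM in WT. WT replicates 1 and 3 were above all KO tumours and replicate 2 lay within them. The log2 fold change was -1.11 ± 0.51 (edgeR FDR 0.9997), and it was -0.49 without WT replicate 1. Sdf2l1, which works with BiP and its co-chaperones, had 11.7, 7.58 and 12.3 CPM in KO, against 38.0, 5.71 and 14.5 CPM in WT, where only replicate 1 stood far from the rest. Its log2 fold change of -0.88 ± 0.63 was 0.06 without that library. Manf, a secreted ER stress protein, had -0.55 ± 0.39 and -0.07 without WT replicate 1.

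Hyou1 (GRP170), the nucleotide exchange factor of BiP, had 103, 90.1 and 69.5 CPM in KO, against 162, 71.3 and 135 CPM in WT. WT replicate 2 lay at the level of the lowest KO tumour, and the log2 fold change was -0.48 ± 0.33. The ER co-chaperones of the DNAJ family had -0.19 ± 0.44 (Dnajb9), -0.32 ± 0.29 (Dnajb11) and -0.30 ± 0.21 (Dnajc3, which also inhibits PERK). The protein disulfide isomerases were close to 0, with Pdia3 at 0.05 ± 0.30, Pdia4 at -0.23 ± 0.37 and Pdia6 at 0.15 ± 0.42. By CPM all 3 were lowest in WT replicate 2 and highest in WT replicate 1.

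Among the ER-associated degradation genes, Edem1 alone had no overlap by CPM. Edem1, a lectin that hands misfolded glycoproteins to degradation, had 122, 133 and 113 CPM in KO, against 151, 139 and 144 CPM in WT. The difference was small and the log2 fold change of -0.24 ± 0.16 did not pass (edgeR FDR 0.9997). It ran from -0.29 to -0.18 with single libraries left out. By RPKM the groups overlapped, with KO replicate 1 the highest library at 20.3 RPKM. The ubiquitin ligase subunits Syvn1 (HRD1) and Sel1l had -0.28 ± 0.30 and -0.22 ± 0.25, and the derlin Derl1 had 0.13 ± 0.30. Herpud1, an ER membrane protein of the same ligase complex, had 340, 365 and 337 CPM in KO, against 535, 363 and 356 CPM in WT, with replicate 1 alone above the rest (-0.27 ± 0.24).

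Derl3, a derlin found mainly in secretory tissue, had the widest range of the 34 genes. It had 1.23, 0.466 and 1.42 CPM in KO, against 24.8, 0.964 and 2.62 CPM in WT. WT replicate 1 was far above the other tumours, and WT replicate 2 lay among the KO tumours. The log2 fold change was -3.18 ± 1.22 (edgeR FDR 0.9997) and -0.78 without WT replicate 1.

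WT replicate 1 was the highest library for 16 of the 20 chaperone arm genes (80%), against 16.1% of all genes tested. By the deposited RPKM it was the highest for 12 of the 20, with 6 highest in KO replicate 1. The share of all genes was counted by CPM only, so these RPKM counts have no share beside them. By CPM, WT replicate 1 was the highest for 7 of the 9 genes with an ERSE match and for both with an ERSE-II match. That was near the share of the whole arm, and Hspa5 and Canx peaked in KO replicate 1. By RPKM Hspa5, Canx, Pdia6 and Syvn1, all with an ERSE match, peaked in KO replicate 1. So did Edem1, without a match, and Derl1, for which no window was held. The other genes with an ERSE match, Calr, Creld2, Derl3, Dnajc3 and Hsp90b1, peaked in WT replicate 1 by RPKM too. In WT replicate 1, 10 of 11 pancreatic acinar markers tested were at their highest. Their summed level over 15 listed genes was 29.6 to 95.2 CPM in KO and 29.6 to 183 CPM in WT, led by Cela1 and Ctrb1, while Prss1 reached at most 0.0877 CPM and Ptf1a had 0 reads in all tumours. KO replicate 2, with the second highest acinar sum, had the lowest Derl3. Plasma and B cell markers, whose cells also use this arm, summed to 197 to 241 CPM in KO and 256 to 412 CPM in WT over 12 genes. The gap between genotypes came with Sdc1, which hepatocytes also express and which had 168 to 206 CPM in KO and 228 to 261 CPM in WT. The other 11 genes, led by Igkc and Jchain, summed to 22.2 to 61.9 CPM in KO and 25.4 to 184 CPM in WT and overlapped. Of the 11 genes of the list that were tested, 6 peaked in WT replicate 3, against 4 in WT replicate 1. The part of these cell types in the result was not tested.

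**Figure D4:**
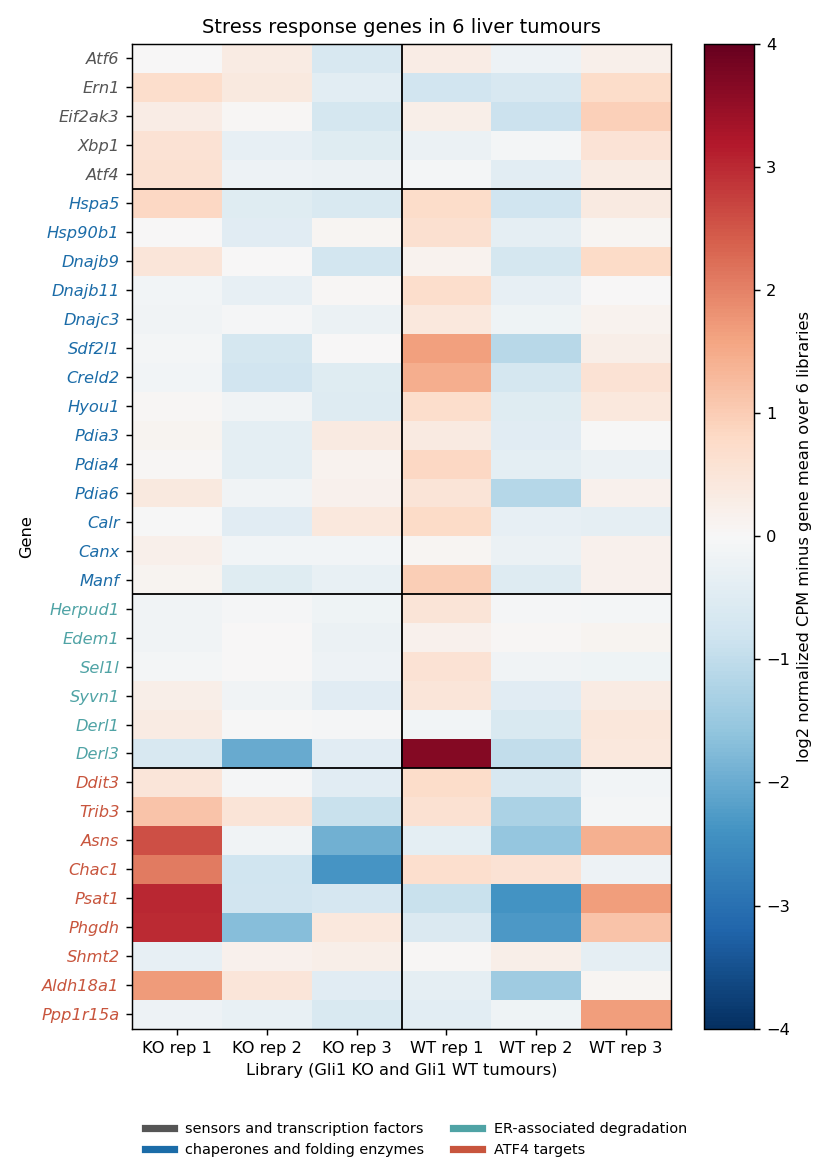
Log2 normalized CPM of each of the 34 genes (rows, grouped by role) in the 3 KO and 3 WT tumours (columns), minus the gene's mean over the 6 libraries. Of the chaperone and degradation rows, 16 of 20 are warmest in WT replicate 1, and Asns, Chac1, Psat1, Phgdh and Aldh18a1 are warmest in KO replicate 1.

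The ATF4 targets had the widest median range of the 3 groups. Their highest to lowest CPM ratio over the 6 tumours had a median of 8.93, against 2.21 in the chaperone arm, 2.10 in the sensors and factors and 2.06 over all genes tested. The ratio was 42.9 for Psat1, 39.8 for Phgdh, 22.8 for Asns and 22.4 for Chac1, and 1.52 for Shmt2. Phgdh, the first enzyme of serine synthesis, had 38.4, 1.47 and 6.48 CPM in KO, against 3.19, 0.964 and 10.7 CPM in WT. Psat1, the next enzyme of that pathway, had 72.5, 5.24 and 5.61 CPM in KO, against 4.75, 1.69 and 28.4 CPM in WT. Both genes were highest in KO replicate 1 and second in WT replicate 3. For Phgdh, KO replicate 3 lay not far below WT replicate 3. Phgdh had a log2 fold change of 1.64 ± 1.26 (edgeR FDR 0.9997) and Psat1 of 1.26 ± 1.35 (edgeR FDR 0.9997), and without KO replicate 1 these were -0.30 and -1.08.

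Asns, the asparagine synthetase, followed the same order at the top, with 40.0, 6.04 and 1.75 CPM in KO, against 5.06, 2.25 and 18.0 CPM in WT. Its log2 fold change of 0.91 ± 1.19 became -1.10 when KO replicate 1 was left out and 2.12 when WT replicate 3 was. Aldh18a1, the first enzyme of proline synthesis from glutamate, had 16.7, 7.10 and 3.72 CPM in KO, against 3.95, 1.88 and 5.34 CPM in WT. KO replicates 1 and 2 were above all WT tumours and KO replicate 3 lay within them. Its log2 fold change of 1.30 ± 0.62 (edgeR FDR 0.9997) had the smallest p of the ATF4 arm, and it kept its sign with each library left out, from 0.55 without KO replicate 1 to 1.68. Shmt2, the mitochondrial serine hydroxymethyltransferase and at 41.6 RPKM the most abundant of the arm, did not share the pattern. It had 86.7, 121 and 127 CPM in KO, against 112, 127 and 83.8 CPM in WT, and the tumours highest for Phgdh and Psat1 were its lowest.

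**Figure D5:**
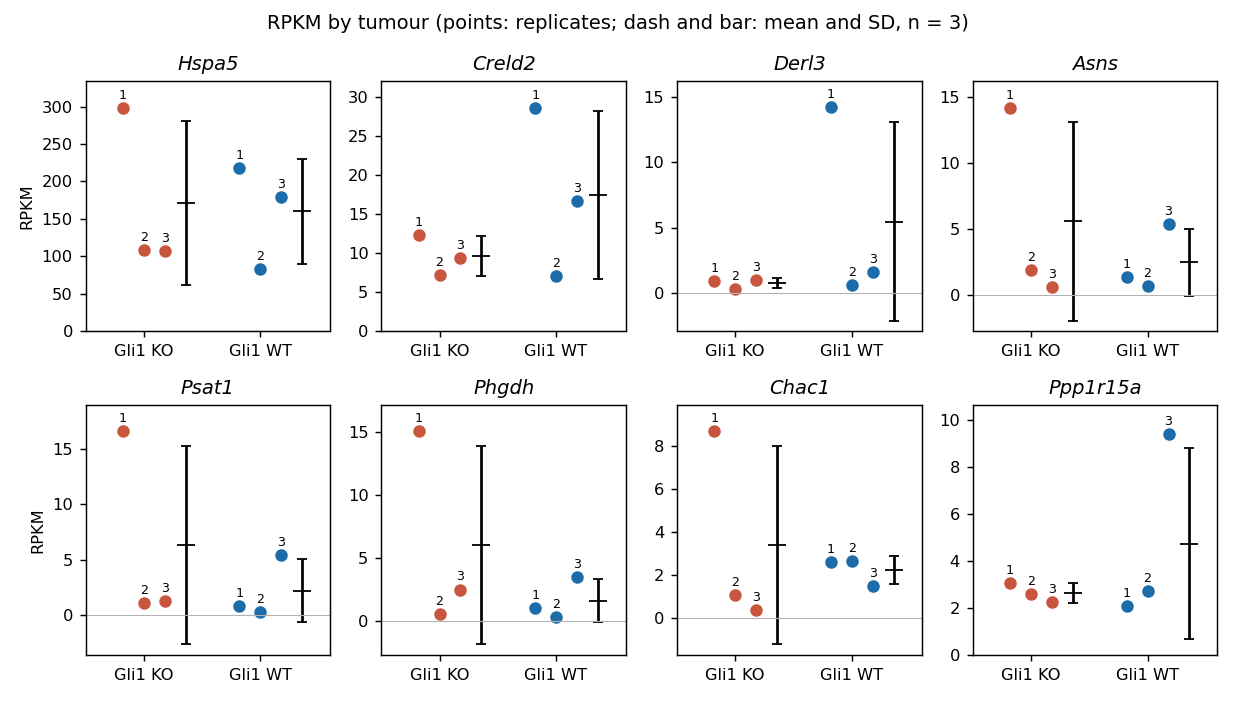
Deposited RPKM (y axis, linear) of 8 genes in KO and WT tumours, with replicate numbers beside the points and the mean and SD of 3 tumours to their right. Derl3 reaches 14.2 RPKM in WT replicate 1, and Asns, Psat1, Phgdh and Chac1 are highest in KO replicate 1, while Ppp1r15a is highest in WT replicate 3.

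By CPM the stress effectors of the ATF4 arm did not all peak in 1 tumour. Trib3 and Chac1 were highest in KO replicate 1 and Ddit3 in WT replicate 1. By the deposited RPKM Ddit3 too was highest in KO replicate 1, at 7.67 against 7.21 RPKM in WT replicate 1. Ddit3, encoding the transcription factor CHOP and lying near Gli1, had 13.5, 9.40 and 7.06 CPM in KO, against 16.1, 6.17 and 9.03 CPM in WT, with a log2 fold change of -0.06 ± 0.40. Trib3, a pseudokinase induced by ATF4 and CHOP, had 40.5, 26.3 and 9.98 CPM in KO, against 28.3, 7.68 and 17.4 CPM in WT (0.52 ± 0.61). Chac1, a glutathione-degrading enzyme, had 14.6, 1.97 and 0.652 CPM in KO, against 5.50, 5.07 and 2.93 CPM in WT. KO held both the highest and the lowest Chac1 tumours, and the log2 fold change of 0.35 ± 1.02 was -1.77 without KO replicate 1.

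Ppp1r15a (GADD34), which brings phosphatase to eIF2 alpha, had 9.28, 8.58 and 6.94 CPM in KO, against 7.93, 9.49 and 33.8 CPM in WT. WT replicate 3 alone was high, and the log2 fold change was -1.05 ± 0.56 (edgeR FDR 0.9997) and -0.07 without it. In that tumour 11 of 12 cytosolic heat shock genes were also at their highest, against 22.2% of all genes tested. Hspa1a, a cytosolic HSP70, had 3.60, 0.820 and 1.64 CPM in KO, against 0.488, 0.581 and 15.1 CPM in WT. All 9 neutrophil markers tested peaked there too, with a summed level over 10 genes of 5.06 to 10.6 CPM in KO and 9.98 to 44.1 CPM in WT. The part of heat shock or of other cells in the Ppp1r15a value was not tested.

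By CPM, KO replicate 1 was the highest library for 6 of the 9 ATF4 targets (66.7%), against 16% of all genes tested. By RPKM it was the highest for 7 of the 9, with no share of all genes counted on that scale. The 3 ATF4 targets with a CARE were among the 6, and Herpud1, which has a CARE and an ERSE-II, peaked in WT replicate 1 with most of the chaperone arm. In KO replicate 1 the stellate cell and fibroblast markers were at their highest for 7 of 10 genes. Their summed level was 309 to 730 CPM in KO and 138 to 446 CPM in WT, led by Col3a1, Reln and Dcn. Proliferation markers peaked elsewhere, 9 of 10 in KO replicate 3 (33.9 to 157 CPM summed in KO and 25.4 to 71.8 in WT). What part stromal cells had in the ATF4 targets was not tested.

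No gene of the wider pathway lists passed FDR 0.05. Among 30 other ATF4 and CHOP targets, 0 had FDR under 0.05, with 15 positive, 15 negative and a median log2 fold change of -0.01. At an unadjusted edgeR p under 0.05 there were 1 higher, Mthfd2, and 2 lower, Cebpb and Slc7a11. Of all genes tested 1.6% were higher and 2.02% lower at that p. Mthfd2, the mitochondrial folate enzyme downstream of Shmt2, had 13.1, 6.61 and 1.54 CPM in KO, against 1.32, 0.634 and 2.72 CPM in WT (2.18 ± 0.84, edgeR FDR 0.9997). The cystine transporter gene Slc7a11 had 0.731, 0.331 and 0.326 CPM in KO, against 0.0752, 0.476 and 57.5 CPM in WT, and its log2 fold change of -5.38 ± 2.22 was 0.75 without that tumour. The transcription factor Cebpb had -0.44 ± 0.19. Of these 30 genes 13 peaked in KO replicate 1 and 10 in WT replicate 3.

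The 11 aminoacyl-tRNA synthetases, many of them ATF4 targets, had 7 positive values, a median of 0.14 and 7 genes at their highest in KO replicate 1. The smallest p among them was that of Sars, at 0.35 ± 0.22 (edgeR FDR 0.9997). Of 35 other ER secretory pathway genes (translocon, glycosylation and transport), 24 were positive with a median of 0.08, and 18 peaked in KO replicate 1 against 6 in WT replicate 1. WT replicate 2 was the lowest library for 30 of these 35 genes (85.7%), against 20% of all genes tested. Dnajc10, an ER reductase of this list, had 0.57 ± 0.30 (edgeR FDR 0.9997).

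The remaining lists lay near 0. The 12 genes for eIF2, eIF2B, the other eIF2 alpha kinases and the constitutive phosphatase cofactor had a median of -0.09, with the eIF2B subunit Eif2b3 at -0.25 ± 0.18. The 6 tested liver ER membrane factors had a median of -0.02, and Atf6b, the close relative of Atf6, had 12.4, 13.6 and 11.9 CPM in KO, against 16.4, 15.4 and 14.1 CPM in WT (-0.28 ± 0.15, edgeR FDR 0.9997). Its groups did not overlap by CPM, and 3.96% of all genes tested were likewise separated with KO lower. With limma on log2 of the deposited RPKM + 0.1 the log2 fold change of Atf6b was -0.07, where the median of all genes was 0.19. The 12 cytosolic heat shock genes had a median of -0.05 and the 8 mitochondrial chaperones and proteases one of -0.04, with the mitochondrial unfoldase Clpx at -0.27 ± 0.20. In these 4 lists 0 genes had an unadjusted edgeR p under 0.05, and 0 passed FDR 0.05.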

How the data were processed

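RNA sequencing of 6 liver tumours was deposited as a single table that holds read counts and RPKM per gene. The gene counts are whole numbers that the authors deposited without normalization, and the RPKM are the authors' values per kilobase of a coding length given in the table. The tools named in the submitters' processing notes are HTSeq, TopHat2 (version 2.0.6) and bcl2fastq, with no role for any of them, and the genome builds named are human although the rows are mouse genes. Neither the mouse build nor the strand setting of the counting is given in the sources used here. From the values, the RPKM correspond to a read total 1.1264 to 1.1904 times the summed gene counts, highest in WT replicates 1 and 2.

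Counts were tested with edgeR 4.0.16 (quasi-likelihood, TMM factors, filterByExpr, robust) in R 4.3.3, KO against WT, with Benjamini-Hochberg adjustment over 18359 genes, on code that was tested on simulated data. DESeq2 1.42.0 and limma 3.58.1 were alternatives. SE is the fold change over the square root of the F statistic. Levels over libraries used a prior count of 2. Genes were described in full by their role or p: all sensors and factors, the 4 smallest p in each arm, the most abundant and the widest of each arm. Asns, Chac1, Trib3 and Herpud1, and the other genes given per library, were added after their values were seen. The stress genes and all gene lists were chosen with earlier results of these data known. Of 242 list entries, 239 matched a deposited symbol, 2 a GENCODE M21 name and 1 nothing. Protein sequences were not used here.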

Additional observations from a re-analysis of the deposited data

How the results depend on the processing

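The count of stress genes with FDR under 0.05 was 0 under every alternative run, which were other scaling factors, DESeq2, limma voom, other filters, a replicate block, a label number covariate, FDR 0.1, a non-robust fit, the table without its 10 most counted genes, each library left out, voom with sample quality weights and limma on RPKM. The last 2 were chosen after seeing the data. Over all genes the count was 0 in edgeR, with 665 genes at an unadjusted p under 0.05, and 64 in DESeq2. The cause was not tested. Between 0 and 5 stress genes had an unadjusted p under 0.05, the 5 without WT replicate 2, all lower in KO, as were 1.55% of the 18924 genes in that fit. The chaperone median lay between -0.47 and 0.02 and the ATF4 median between -0.33 and 0.91 with single libraries left out.

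The labels do not say whether replicate numbers pair the samples. Deviations of same-numbered libraries from their group means correlated at -0.285, 0.18 and -0.343. KO replicate 2 correlated best with its own number, and KO replicate 1 with WT replicate 3, at 0.513. The label numbers in KO and WT were 1767 and 1759 for replicate 1, 4206 and 4204 for replicate 2, and 1647 and 3981 for replicate 3. Deviations within groups of 3 libraries depend on each other, so these values cannot decide whether samples were paired. With the replicate block, 0 stress genes and 0 of all genes passed FDR 0.05, and 502 genes had an unadjusted p under 0.05. The block reversed Chac1 -0.76 and Hspa1a 0.17.

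On the log2 RPKM + 0.1 scale the median of all genes was 0.19, against -0.01 in the main fit. A positive value on that scale therefore need not lie above the median of all genes. Single log2 fold changes that changed sign, none of them past the threshold in any fit, were as follows. With limma on log2 RPKM + 0.1 they were Atf6 0.024, Xbp1 0.067, Hspa5 0.035, Dnajb9 0.063, Pdia4 0.076, Calr 0.17, Canx 0.20, Sel1l 0.034, Ddit3 0.21, Chac1 -0.40, Hspa1a 0.040. With sample quality weights they were Dnajb9 0.025, Pdia3 -0.037, Canx 0.0058, Chac1 -0.87, Shmt2 -0.020, Hspa1a 0.79, Slc7a11 0.086. With voom they were Ddit3 0.012, Chac1 -0.64, with the label number covariate Pdia3 -0.15, Pdia6 -0.013, Chac1 -0.27, with upper-quartile factors Canx 0.0011 and with no low-count filter Canx 0.0076. With each library left out in turn, the ranges that crossed 0 were Atf6 (-0.37 to 0.073), Eif2ak3 (-0.71 to 0.15), Xbp1 (-0.50 to 0.16), Atf4 (-0.17 to 0.36), Hspa5 (-0.76 to 0.19), Hsp90b1 (-0.49 to 0.016), Dnajb9 (-0.49 to 0.23), Dnajb11 (-0.53 to 0.031), Sdf2l1 (-1.32 to 0.063), Pdia3 (-0.13 to 0.27), Pdia4 (-0.45 to 0.27), Pdia6 (-0.19 to 0.51), Calr (-0.35 to 0.37), Canx (-0.13 to 0.072), Sel1l (-0.34 to 0.066), Derl1 (-0.093 to 0.44), Ddit3 (-0.33 to 0.40), Asns (-1.10 to 2.12), Chac1 (-1.77 to 0.87), Psat1 (-1.08 to 3.11), Phgdh (-0.30 to 2.89), Shmt2 (-0.097 to 0.22), Hspa1a (-2.11 to 1.92), Slc7a11 (-5.96 to 0.75).

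Depth limits the values of Gli1, at 3 to 20 reads, more than those of the stress genes.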
